A study of Mus musculus with 4 samples.

Results

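Collagens and laminins were followed across 4 two-colour arrays of ZHBTc4 cells. They were taken as every non-control spot whose gene name is a collagen chain (Col, a number, a, a number) or a laminin chain (Lama, Lamb or Lamc and a number, with Lamb1-1 read as Lamb1). The pattern found 126 spots, 99 probes and 51 genes, of 27670 genes on the array. In the terms used here, 11 were fibrillar collagens, 9 basement membrane collagens, 11 laminin chains and 20 other collagens. ZHBTc4 is a line of mouse embryonic stem cells whose Oct4 (Pou5f1) comes from a transgene that doxycycline turns off, and the study asks about the histone demethylase LSD1 (Kdm1a) during differentiation. Cells were raised on irradiated embryonic fibroblasts (feeders), carried for 2 passages on gelatin, and given 2 µg doxycycline for 48 h, either alone (dox, the group titled control) or together with TCP (dox+TCP), an abbreviation that the labels do not spell out. There were 2 biological replicates a group. The Cy5 channel held the treated cells. The Cy3 channel of every array held ZHBTc4 cells with no treatment named, which serve as the reference, and all groups thus come from 1 cell line.

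Collagens are trimers of chains wound into a triple helix. The fibrillar collagens (types I, II, III, V, XI, XXIV and XXVII) form the fibres of connective tissue, and type I is the main product of fibroblasts. Basement membranes, the thin sheets under epithelia, are built instead on a network of type IV collagen and on laminins, each a trimer of an alpha, a beta and a gamma chain. In the early mouse embryo laminin and type IV collagen are made by primitive endoderm, whose parietal cells with trophoblast line Reichert's membrane. Loss of Oct4 turns embryonic stem cells toward trophoblast.

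Promoter sequences are shown for members that rose in the arrays, since several of them moved together. RefSeq windows (GRCm38.p6, 250 bases before to 50 after each start) were matched for 37 of the 51 genes, in 41 windows. The GC box GGGCGG, searched on both strands in the 250 bases before the start, stood in 51.2% of these windows and in 32.7% of all 32851. CCAAT, likewise on both strands, stood in 31.7% and 33.8%, and the octamer ATGCAAAT in 4.88% (the windows of Col25a1 and Col3a1) and 1.6%. Printed below are the 30 bases around the GC box nearest the start for the risen members with 1 window and a GC box before it, outside the Col4a1 and Col4a2 pair. Each is read 5′ to 3′ on the strand of its gene, with GC boxes of either strand in capitals. A match describes the letters only.
Lamb1 (chr12:31265204-31265233, plus strand, ending 60 bases before the start): gtcctCCGCCCcctCCGCCCccgctctcca
Lama5 (chr2:180225860-180225889, minus strand, ending 1 base before the start): gggccagcgggaccggCCGCCCcaaactag
Col16a1 (chr4:130047667-130047696, plus strand, ending 144 bases before the start): tggggaagcgggacGGGCGGgcccgggcgc
Col11a1 (chr3:114030507-114030536, plus strand, ending 4 bases before the start): gaggcgggaggagtGGGCGGaggagggggc
In Lamb1 and Lama5 the capitals read as the reverse complement of the GC box, and in Col16a1 and Col11a1 as the box itself. Col4a1 (minus strand) and Col4a2 (plus strand) have annotated starts on chromosome 8 at 11312826 and 11312805, so that both transcripts cover the same 22 bases and their windows share 78.

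Of the 51 genes, 42 had a probe bright enough to test, meaning well above background in Cy5 on both arrays of a group or in Cy3 on all 4 arrays. These were 10 fibrillar collagens, 6 basement membrane collagens, 10 laminin chains and 16 other collagens. The 9 left out were Col24a1 (fibrillar), Col4a3, Col4a5 and Col15a1 (basement membrane), Lama2, and Col8a2, Col10a1, Col12a1 and Col14a1. Over the whole series, 21411 genes were tested. Between 68.8% and 78.1% of spots per array and channel were well above background, and no non-control spot was flagged as saturated on any array. Log2 ratios of the treated over the reference channel correlated across genes at 0.662 between the dox arrays and at 0.865 between the dox+TCP arrays. Pou5f1 fell, with log2 ratios of -3.50 with dox and -3.29 with dox+TCP (limma adjusted p = 0.010 and 0.015), and in the reference its level lay between 12.29 and 13.65. The labels do not say whether the replicates shared 1 reference RNA. Reference levels of some genes differed between the replicate numbers (values below), so the 2 ratios of a group were taken against references that differed. Across genes the Cy3 levels correlated at 0.999 between the replicate 1 arrays and at 0.989 between the replicate 2 arrays. Single genes still differed between the references of the replicate 2 arrays (dox, then dox+TCP). Pou5f1 stood there at 13.65 and 12.48, and Col1a2 at 8.93 and 8.26. What a ratio stands for can thus differ between replicate 1 and replicate 2, and for some genes between the 2 replicate 2 arrays. Replicate 1 of both groups shared a slide, while dox+TCP replicate 2 was on a slide of its own and was scanned on another day.

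After 48 h of doxycycline, 5 of the 42 members rose against the reference and 0 fell by limma's test (adjusted p under 0.05), where 6.32% of all genes tested rose and 8.28% fell. Of these, 4 were basement membrane genes, namely the type IV chains Col4a1 and Col4a2, the endostatin-bearing collagen Col18a1 and the laminin beta chain Lamb1. The fifth was Col16a1, a collagen with interrupted triple helices that associates with fibrils. None of the 10 fibrillar collagens passed. Counted over all genes, 1353 rose and 1773 fell; with ratios centred on the median in place of loess, 81.12% of calls were rises against 43.28%, and the median of all genes moved up by 0.18 on the log2 scale.

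Col4a1, probed at chr8:11167020-11167079 (mm7), gave log2 ratios of 0.97 and 1.01 on the dox arrays and 1.32 and 1.35 on the dox+TCP arrays. All 4 ratios were above 0, and both dox+TCP arrays lay above both dox arrays. The rise with dox was 0.99 (SE 0.076, n = 2), or 1.99-fold, with a limma adjusted p of 0.016. Its partner Col4a2, which winds together with Col4a1 in the most widespread type IV network, was probed at chr8:11416851-11416910. Its ratios of 1.04 and 1.13 with dox, and 1.24 and 1.03 with dox+TCP, overlapped between the groups. The rise with dox was 1.08 (SE 0.096, n = 2), 2.12-fold (limma adjusted p = 0.018). For both genes the other probe also rose, by 1.18 for Col4a1 and by 0.98 for Col4a2 with dox (limma adjusted p over probes 0.020 and 0.022). The type IV chains Col4a4 and Col4a6, which belong to rarer networks, had mean log2 ratios of 0.14 and -0.011 with dox and did not pass.

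Col18a1 (chr10:76707663-76707722) gave log2 ratios of 0.78 and 1.41 with dox and 1.32 and 1.55 with dox+TCP. Every array was above 0, with dox replicate 1 the lowest. It rose by 1.09 with dox (SE 0.19, n = 2; limma adjusted p = 0.041), and did not pass without dox replicate 2, on which its value was higher. Its other probe stood at 1.06 with dox (limma adjusted p over probes 0.063). The remaining basement membrane collagen, Col7a1, forms the fibrils that anchor the epidermis. Its ratios were -1.75 and -0.89 with dox and -1.22 and -0.39 with dox+TCP, below 0 on every array, but the mean of -1.32 with dox did not pass (limma adjusted p = 0.076).

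Among the laminin chains, Lamb1 (chr12:29168364-29169711), the beta chain that joins Lamc1 and either Lama1 or Lama5, gave the highest ratios: 1.47 and 2.22 with dox, and 1.32 and 1.77 with dox+TCP. The groups overlapped and no array was below 1.32. The rise with dox was 1.84 (SE 0.24, n = 2), 3.59-fold (limma adjusted p = 0.027). Lama5 (chr2:180677286-180677300), an alpha chain of many epithelial basement membranes, had ratios of 0.55 and 0.84 with dox and 0.93 and 1.40 with dox+TCP. Its mean of 0.69 with dox did not pass (limma adjusted p = 0.070). The other chains of the classical embryonic laminin, Lama1 and Lamc1, did not pass as genes, each read from its brightest tested probe. Lama1 (chr17:66089045-66090007), the alpha chain, gave -0.92 and -0.09 with dox and -0.66 and -0.13 with dox+TCP. Lamc1 (chr1:153180095-153180153), the gamma chain shared by most laminins, gave -0.72 and 0.043 with dox and -0.51 and 0.0095 with dox+TCP. On these probes the replicate 1 arrays were the lower ones, and the means with dox were -0.50 and -0.34 (limma adjusted p = 0.29 and 0.44). Centred on the median, Lamc1 was at 0.32 instead. A dimmer Lama1 probe gave -0.83 and -0.83 with dox and -0.77 and -0.66 with dox+TCP, without that split on the dox arrays. Tested on its own, that probe passed in both comparisons, with means of -0.83 and -0.72 (limma adjusted p over probes 0.022 and 0.025). Lama3 and Lamb3, chains of epithelial laminins, had dox means of 0.11 and 0.13 and did not pass, and Lamb3 was well above background on 3 of the 4 arrays in Cy3. A dimmer Lama3 probe stood at -0.72 with dox (limma adjusted p over probes 0.032).

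**Figure D1:**
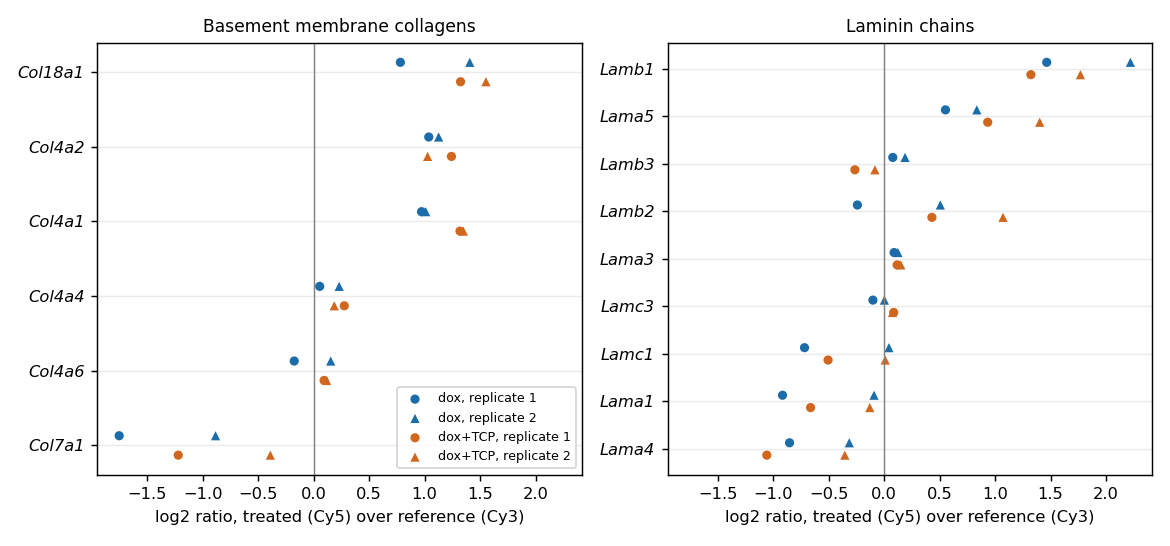
Log2 ratio of the treated (Cy5) over the reference (Cy3) channel for the tested basement membrane collagens (left) and 9 of the 10 tested laminin chains (right), 1 point per array, with dox in blue, dox+TCP in orange, replicate 1 as circles and replicate 2 as triangles. Col18a1, Col4a1, Col4a2, Lamb1 and Lama5 lie above 0 on every array, and Col7a1, Lama1 and Lama4 below 0 on every array. Col4a4 (0.054 to 0.28) and Lama3 (0.089 to 0.15) also lie above 0 on every array.

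The fibrillar collagens did not share 1 direction with dox. The type I chains Col1a1 (chr11:95060800-95060859) and Col1a2 (chr6:4493505-4493564) were low on 1 array only. Col1a1 gave log2 ratios of -1.02 and 0.14 with dox and 0.12 and 0.0034 with dox+TCP. Col1a2 gave -0.82 and 0.029 with dox and 0.0042 and 0.43 with dox+TCP. On these probes, the brightest tested for each chain, dox replicate 1 was thus the low array. The dox means of -0.44 (SE 0.31) and -0.40 (SE 0.26) did not pass (limma adjusted p = 0.42 and 0.38). The scanner's own ratios for Col1a1 showed the same order on the dox arrays, -1.05 and 0.36. Without dox replicate 1, Col1a1 stood at 0.14. Without dox replicate 2, it stood at -1.02 and Col8a1 at -0.92, each on the 1 dox array left. Of the dimmer tested Col1a1 probes, 1 gave -0.28 and 0.033 on the dox arrays. The other gave 0.027 and 0.31, and so was not low on dox replicate 1. Col3a1, the type III chain of loose connective tissue (chr1:45585395-45585454), stayed between -0.29 and 0.053 on the 4 arrays, read from its brightest tested probe. The scanner's own ratios for that probe ran from -0.60 to 0.13. A dimmer Col3a1 probe gave 0.11 and 0.15 with dox, and 0.056 and 0.12 with dox+TCP.

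The minor fibrillar chains varied among themselves. Col5a1, Col5a2 and Col5a3, whose type V trimers set the width of type I fibrils, were each below 0 on dox replicate 1 (-0.57, -0.20 and -0.063) and above 0 on dox replicate 2 (0.63, 0.61 and 0.93). On dox replicate 1, a dimmer Col5a1 probe was at -0.39 and a dimmer Col5a3 probe at 0.046. Col11a2, of cartilage fibrils, was above 0 on all 4 arrays on its brightest tested probe, from 0.18 to 0.82, and did not pass. A dimmer Col11a2 probe gave -0.12 and -0.066 with dox, and 0.018 and 0.041 with dox+TCP. Col2a1, the main collagen of cartilage, was below 0 on all 4, from -1.12 to -0.13, with a mean of -0.80 with dox (limma adjusted p = 0.12). A dimmer Col2a1 probe spotted 10 times, singled out after its values were seen, fell by 1.38 with dox and by 1.14 with dox+TCP (limma adjusted p over probes 0.028 and 0.036), while the third Col2a1 probe was at 0.062. Dimmer probes of Lama1 and Lama3 fell too when each probe was tested on its own, by 0.83 and 0.72 with dox (limma adjusted p over probes 0.022 and 0.032). With dox+TCP they stood at -0.72 and -0.74 (limma adjusted p over probes 0.025 and 0.030). Of the 20 members with over 1 tested probe, 0 had called probes of opposite sign. Over 1 called probe is needed to show this. With dox only Col4a1 and Col4a2 had that, and with dox+TCP these and Col18a1. The count thus does not tell whether the probes of the other members agreed. The median log2 ratio with dox was 0.059 over the 10 fibrillar collagens, 0.12 over the 16 basement membrane collagens and laminins, 0.033 over the 16 other collagens and -0.00099 over all genes tested. Without dox replicate 2, the first became -0.24 and the second -0.024.

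**Figure D2:**
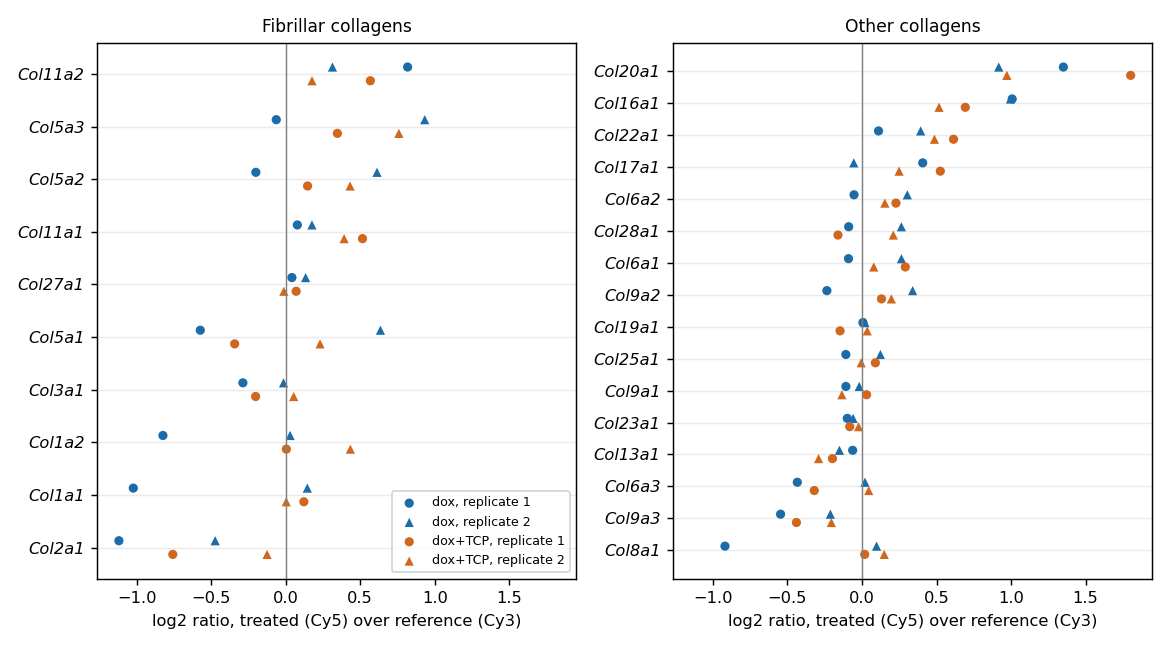
Log2 ratio of the treated (Cy5) over the reference (Cy3) channel for each tested fibrillar collagen (left) and other collagen (right), 1 point per array, coloured by group and shaped by replicate. Col1a1, Col1a2 and Col8a1 have 1 low point each, dox replicate 1, at -1.02, -0.82 and -0.92. Col16a1, Col20a1, Col22a1, Col11a1 and Col11a2 lie above 0 on every array. Each gene is shown by its brightest tested probe, and dimmer probes of Col1a1 and Col11a2 did not all share these signs.

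Of the other collagens, Col16a1 (chr4:129543748-129543807) gave 1.01 and 1.00 with dox, and 0.69 and 0.52 with dox+TCP. Both dox arrays lay above both dox+TCP arrays. It rose by 1.00 with dox (SE 0.088, n = 2; limma adjusted p = 0.018). Col20a1 (chr2:181518278-181518337), a relative of the fibril-associated collagens, had ratios of 1.35 and 0.92 with dox and 1.80 and 0.97 with dox+TCP; its mean with dox, 1.13, did not pass (limma adjusted p = 0.066). The type VI chains Col6a1, Col6a2 and Col6a3, which form beaded filaments, had dox means of 0.087, 0.13 and -0.21. The cartilage type IX chains Col9a1, Col9a2 and Col9a3 had means of -0.063, 0.052 and -0.38. None of these 6 chains passed, and some were dim. In Cy3, Col6a1 was well above background on 2 of the 4 arrays and Col9a1 on 3. On dox replicate 1 the scanner's own ratios for Col6a3 and Col9a3 were -1.08 and -0.96, beside -0.43 and -0.55 here.

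With dox+TCP, 8 of the 42 members rose against the reference and 0 fell, where 7.31% of all genes rose and 8.08% fell (with median centring, rises were 78.34% of calls against 47.48%, and the median of all genes moved up by 0.14). The 8 were Col4a1, Col4a2, Col18a1, Lamb1, Lama5, Col16a1, Col11a1 and Col20a1. Col4a1 rose by 1.33 (SE 0.076), Col18a1 by 1.44 (SE 0.19) and Lamb1 by 1.55 (SE 0.24), with n = 2 each (limma adjusted p = 0.017, 0.027 and 0.034). Lama5 rose by 1.17 (SE 0.16, n = 2; limma adjusted p = 0.028), or 2.25-fold. Col4a2 rose by 1.13, Col16a1 by 0.60 and Col20a1 by 1.39 (limma adjusted p = 0.018, 0.031 and 0.045). Col11a1 (chr3:113974545-113974604), a chain that nucleates cartilage fibrils and the only fibrillar member to pass, gave 0.51 and 0.39 with dox+TCP and 0.078 and 0.18 with dox; its rise of 0.45 had a limma adjusted p of 0.048. The median was 0.14 over fibrillar collagens, 0.12 over basement membrane genes and 0.033 over all genes.

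The calls of both comparisons rest on the dox+TCP arrays, which share in the estimate of the spread. Without dox+TCP replicate 1, and likewise without dox+TCP replicate 2, 0 members and 0 genes passed in either comparison (limma; for dox, 5140 genes were under an unadjusted p of 0.05 in each case, and for dox+TCP 3353 and 3598). The same held with local backgrounds used as read (1899 genes with dox and 1965 with dox+TCP under that p), where Col4a1 was at 0.59 and Lamb1 at 1.48 with dox.

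Set directly against each other, dox+TCP and dox differed in 0 members, and in 0 of 21411 genes (0% in either direction; 943 genes and 2 members were under an unadjusted p of 0.05 by limma). The members' differences, dox+TCP minus dox, ran from -0.40 to 0.62, and 31 of 42 were above 0, beside 12691 of 21411 genes. Their median 95% interval, which is per gene and unadjusted, reached 0.60 to either side. Differences of that size, and larger ones, could thus go undetected after adjustment. Among genes of other lists, Frem2 at -1.10 and Foxq1 at 1.00 did not pass either (limma adjusted p = 0.996 for each). The 2 members with an unadjusted p of 0.036 were Col4a1, 0.34 higher with TCP (95% interval 0.038 to 0.65), and Col16a1, 0.40 lower (difference -0.40, interval -0.75 to -0.045), both with a limma adjusted p of 0.996. On the slide that held replicate 1 of both groups, these differences were 0.35 and -0.31. The largest were Lamb2, 0.62 (interval -0.44 to 1.68), the beta chain of laminins at synapses and kidney filters, and Col1a2, 0.62 (interval -0.41 to 1.64). For Col1a1 the difference was 0.50 (interval -0.75 to 1.75), and on the shared slide 1.14. A member that rose in 1 comparison with the reference and not in the other, such as Lama5, Col11a1 or Col20a1, is therefore not shown to differ between the groups.

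The single channels showed a further split, between the replicates. Levels are normalized log2 intensities, and each gene is set only against itself. In the reference channel, Col1a1 stood at 10.66 and 10.70 on the replicate 1 arrays (dox, then dox+TCP) and at 8.42 and 8.22 on the replicate 2 arrays. On this probe, the brightest of the 3 tested for the gene, the reference of replicate 1 was thus 5.13-fold brighter. In the treated channel Col1a1 was at 9.64 and 10.82 in replicate 1 and 8.56 and 8.22 in replicate 2, in the same order. Col1a2 was at 10.14 and 10.12 against 8.93 and 8.26 in the reference, a 2.90-fold gap, and at 9.32 and 10.13 against 8.96 and 8.69 in the treated cells. Neither chain overlapped between replicates in either channel. Col3a1 lay between 6.99 and 7.34 in all 8 channel readings.

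With the rule of at least 2-fold and no overlap, which is a description and no test, the reference of replicate 1 was brighter for 5 members (0.785% of all genes) and that of replicate 2 for 1 member (1.11% of all genes). The 5 were Col1a1, Col1a2, Col5a2, Col8a1 (a network-forming collagen of vessels and cornea) and Col7a1, so 3 of the 10 fibrillar collagens and 1 of the 16 basement membrane genes. Col5a2 stood at 8.29 and 8.21 against 7.04 and 6.997, Col8a1 at 8.71 and 8.77 against 7.38 and 7.40, and Col7a1 at 11.42 and 11.42 against 10.29 and 10.097. The 1 member brighter in replicate 2 was Col4a1, at 10.27 and 10.36 against 11.56 and 11.28. Col4a2 (10.11 and 10.14 against 11.17 and 11.00) and Col4a4 (11.50 and 11.52 against 12.32 and 12.31) moved the same way by less than 2-fold. In Col4a1 and Col4a2 the treated channel stood about as far above its own reference in both replicates, so the ratio was alike although both channels differed. Lamb1 was at 11.67 and 11.71 against 11.35 and 11.56 in the reference, a small gap beside its rise.

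**Figure D3:**
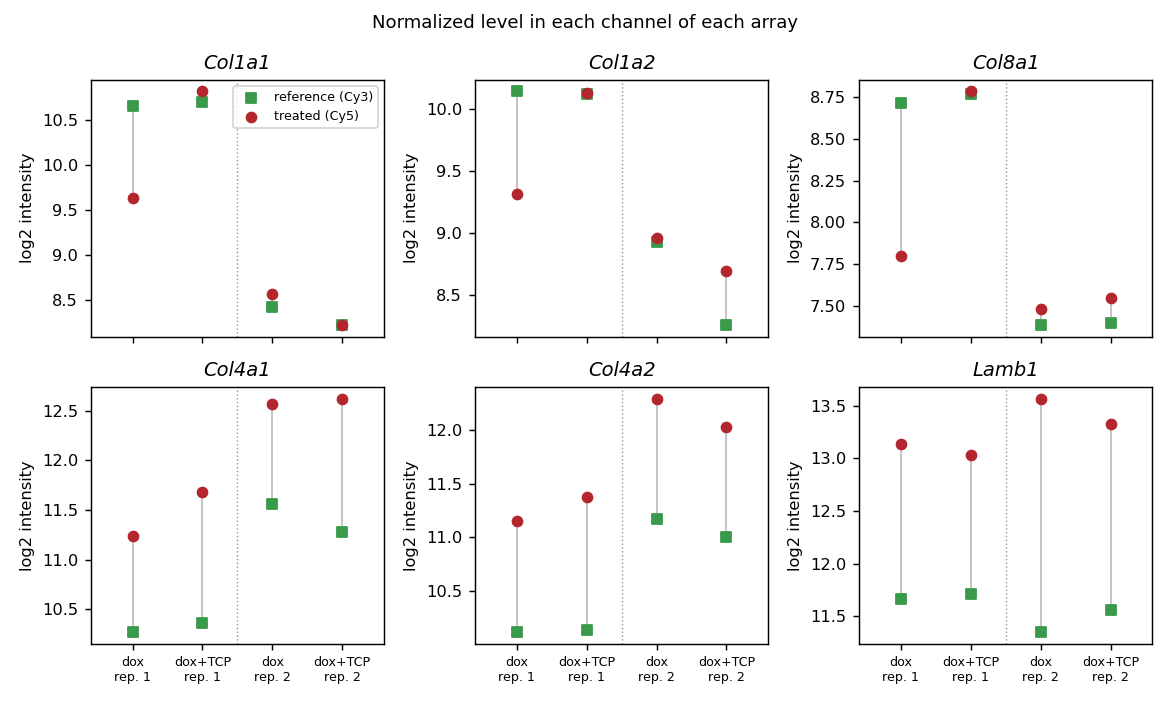
Normalized log2 intensity of the reference channel (green squares) and the treated channel (red circles) on each array for 6 members, with replicate 1 arrays left and replicate 2 arrays right of the dotted line; the scale of each panel is its own. Col1a1, Col1a2 and Col8a1 are brighter in replicate 1 in both channels, Col4a1 and Col4a2 in replicate 2, and in Col4a1, Col4a2 and Lamb1 the treated channel is above the reference on every array.

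Some markers of other cells differed between the replicates too. Of 18 fibroblast markers, chosen for feeder cells, 14 were tested. Their summed reference intensity was 34777 and 36193 on the replicate 1 arrays and 19714 and 24246 on the replicate 2 arrays, and for the fibrillar collagens the sums were 6767 and 6744 against 4041 and 3917. Fstl1, a secreted protein of mesenchyme, was at 13.15 and 13.25 against 11.57 and 10.98. S100a4 and the microfibril gene Fbn1 were also at least 2-fold brighter in replicate 1, by 1.34 and 1.30 on the log2 scale (replicate 2 minus replicate 1, -1.34 and -1.30). The other 11 were not, and the median difference over the list was small (-0.16 on the log2 scale). Of the 14, 8 were brighter in replicate 1 and 6 in replicate 2, beside 8620 and 12728 of all 21411 genes tested. The sums above weigh bright genes most, among them Vim (14.08 and 14.14 against 13.40 and 13.96) and Fstl1. Thy1 differed by -0.19 and Dcn, Lum, Postn and Prrx1 lay between 6.68 and 7.85 on every array and in both channels. Fap, Twist2, Ogn and Dpt were too dim to test. In the comparison with the reference, 6 of the 14 fibroblast markers fell with dox (Cd34, Thy1, Twist1, Fstl1, S100a4 and Vim, from -2.01 to -1.33) and 0 rose. With dox+TCP 4 fell and 1, Pdgfrb, rose. Over all genes tested, 8.28% fell and 6.32% rose with dox, and 8.08% and 7.31% with dox+TCP. The part of feeder RNA in the collagen values was not tested, and fewer cells of a type cannot be told apart from less RNA per cell in such samples.

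Trophoblast markers were mostly brighter in the reference of replicate 2. Of 21 tested, 19 were brighter in the reference of replicate 2 and 12 at least 2-fold so. Over all 21411 genes tested, 12728 were brighter there, and 238 (1.11%) at least 2-fold so. The summed reference intensities of the markers were 64855 and 62615 in replicate 1 against 284309 and 292988 in replicate 2. In the treated channel these sums ran from 452108 to 688758. The replicate 2 ratios, of the collagens and laminins too, were therefore taken against a reference with higher trophoblast marker levels than that of replicate 1; Pou5f1 in the reference was at 12.31 and 12.29 in replicate 1 and at 13.65 and 12.48 in replicate 2, so not lower. Whether the reference cells of replicate 2 were partly differentiated, or those of replicate 1 held more feeder RNA, was not tested. Against the reference, 3 of the 21 rose with dox and 0 fell: Msx2 by 2.21, Igf2 by 2.48 and H19 by 1.66 (limma adjusted p = 0.020, 0.046 and 0.037). The 3 made up 14.3% of the list, where 6.32% of all genes tested rose. More of the markers were raised without passing: 18 of the 21 had dox means above 0, with a list median of 1.46. Esx1 and Krt18 had the means 3.56 and 3.10 and did not pass. The dox arrays differed in size of rise, with list medians of 2.23 (replicate 1) and 0.56 (replicate 2). Of 19 primitive and parietal endoderm markers, 16 were brighter in the reference of replicate 2, again beside 12728 of all 21411 genes. At least 2-fold so were 2 of them (Gata6 and Plat). With dox, Cited1 and Plat rose by 1.28 and 1.12, and the endocytic receptor gene Cubn fell by 2.23. The endoderm factors Gata4, Gata6 and Sox17, whose dox means were 0.074, 0.17 and 0.40, did not pass. Sox7, Afp and Amn, at -1.01, -1.13 and -1.30, did not pass either. Of the 19 markers, 10 had dox means above 0, and the list median was 0.051. The part of either lineage in the rise of Col4a1, Col4a2 and Lamb1 was not tested.

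**Figure D4:**
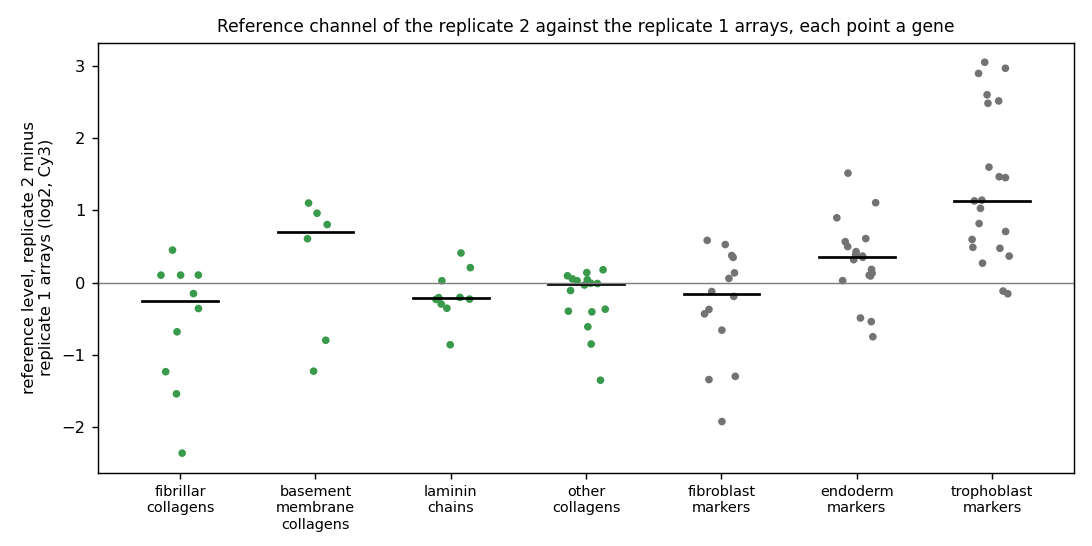
Reference level (Cy3, log2) on the replicate 2 arrays minus that on the replicate 1 arrays, 1 point per tested gene, for the 4 classes of collagens and laminins (green) and 3 lists of cell type markers (grey), with the median of each as a bar. The lowest fibrillar point is Col1a1 at -2.36, the highest basement membrane collagen is Col4a1 at 1.102, and the median of the trophoblast markers is 1.13.

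Other genes of the pathway were read from lists of their own. Of 23 tested genes of collagen processing, 2 rose and 5 fell with dox (8.7% and 21.7%). Over all genes tested, 6.32% rose and 8.28% fell. Serpinh1 (HSP47), the chaperone that binds the folded triple helix, gave 1.70 and 1.74 with dox and 1.61 and 1.36 with dox+TCP, and rose by 1.72 and 1.48 (limma adjusted p = 0.014 and 0.017). P4ha2, a prolyl hydroxylase subunit that stabilises the helix, rose by 1.09 and 1.22. Plod2, which hydroxylates telopeptide lysines for cross-links, fell by 1.34 and 1.08. Pcolce2, an enhancer of procollagen C-proteinase, fell by 2.08 and 1.53. Outside the naming rule but completing the count, the dox ratios of Pcolce, Fkbp10 and Colgalt1 fell too (-2.44, -1.48 and -0.51). With dox+TCP 2 of the 23 rose and 3 fell (8.7% and 13%, beside 7.31% and 8.08% of all genes tested). The cross-linking enzyme gene Lox, singled out after its values were seen, did not pass (dox mean -0.46) and was lower in the reference of replicate 2 by 1.66 on the log2 scale (difference -1.66), as the type I chains were.

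Basement membrane partners gave 2 rises and 1 fall among 14 tested genes in each comparison with the reference (14.3% and 7.14%). Over all genes tested, 6.32% rose and 8.28% fell with dox, and 7.31% and 8.08% with dox+TCP. Frem2, of the Fraser complex at epithelial basement membranes, gave 1.94 and 1.95 with dox and 1.04 and 0.65 with dox+TCP, rising by 1.94 and 0.84 (limma adjusted p = 0.014 and 0.033). Tinagl1, a matrix glycoprotein, rose by 1.76 and 1.86. Egfl6 fell by 0.96 and 0.85. Nidogens bridge laminin and type IV collagen; Nid1 and Nid2, added after their values were seen, had dox means of 0.76 and -1.41 and did not pass (limma adjusted p = 0.060 and 0.088).

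Receptors for these proteins gave 1 rise and 2 falls among 13 tested genes with dox, and 3 rises and 2 falls with dox+TCP. These were 7.69% and 15.4% of the list with dox, and 23.1% and 15.4% with dox+TCP. Over all genes tested, 6.32% rose and 8.28% fell with dox, and 7.31% and 8.08% with dox+TCP. The collagen receptor kinases went opposite ways. Ddr1, the epithelial one, gave 1.00 and 1.51 with dox and 1.20 and 1.23 with dox+TCP and rose by 1.25 and 1.21 (limma adjusted p = 0.025 and 0.026). Ddr2, the mesenchymal one, gave -0.70 and -0.74 and then -0.40 and -0.57, and fell by 0.72 and 0.49 (limma adjusted p = 0.026 and 0.044). The collagen-binding integrin Itga1 fell by 0.45 and 0.50. Itga6, of the main laminin receptors, and the collagen-binding Itga11 rose with dox+TCP, by 1.08 and 0.52. Of 10 tested matrix metalloproteinases and inhibitors, 0 rose and 2 fell with dox: Timp1, an inhibitor, by 1.95 and Mmp2, a gelatinase, by 1.18 (limma adjusted p = 0.026 and 0.023). With dox+TCP these fell by 1.57 and 0.73, and the membrane-anchored inhibitor Reck rose by 0.57.

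**Figure D5:**
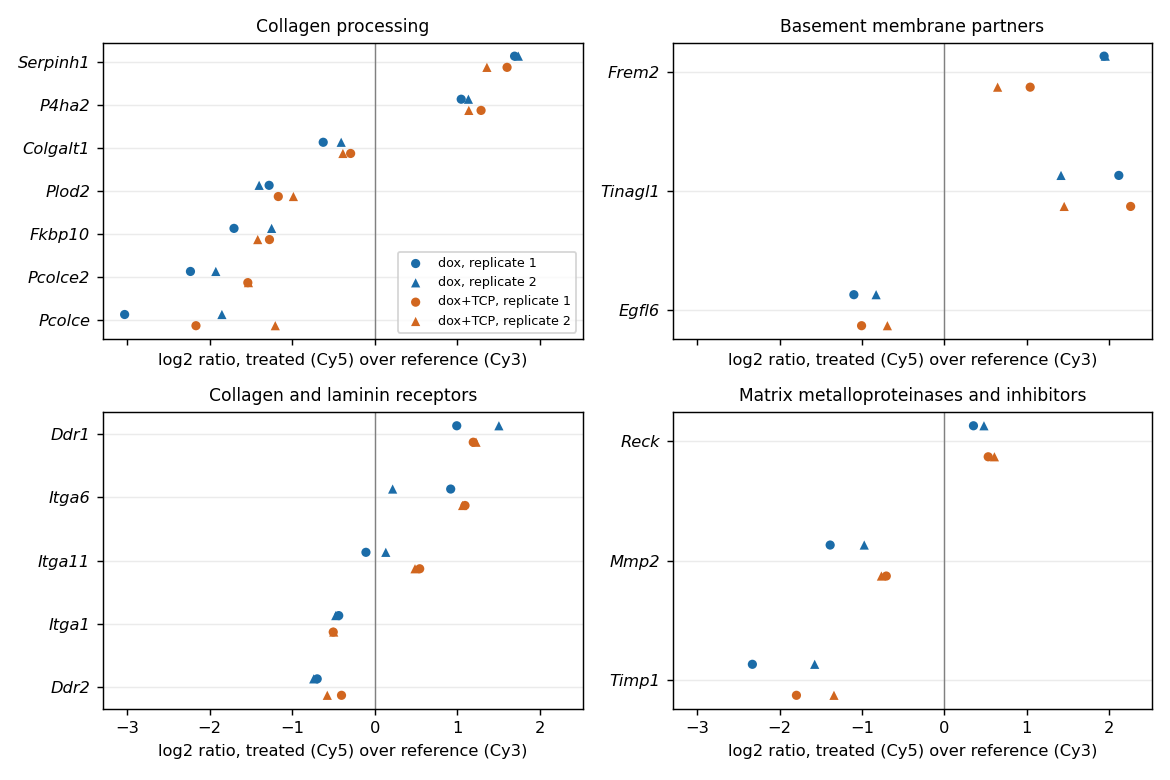
Log2 ratio of the treated (Cy5) over the reference (Cy3) channel on each array for the genes of 4 lists that passed in at least 1 comparison with the reference, coloured by group and shaped by replicate. Serpinh1, P4ha2, Frem2, Tinagl1, Ddr1, Itga6 and Reck lie above 0 on all 4 arrays. Pcolce, Pcolce2, Plod2, Fkbp10, Colgalt1, Egfl6, Timp1, Mmp2, Ddr2 and Itga1 lie below 0 on all 4, and Itga11 lies on both sides.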

How the data were processed

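RNA from 4 cultures was measured on 2-colour arrays (2 with dox, 2 with dox+TCP). The deposited spot signals and local backgrounds are linear intensities as scanned (Agilent Feature Extraction 10.1.1.1, probes placed on mm7, per the file headers). The deposited log10 ratios, Cy5 over Cy3, had their background removed and their dyes balanced by the scanner software, per the file headers. The authors' series matrix matched them within 0.005, and its column medians were 0, 0.0111, 0 and 0. Dyes were not swapped, so a dye bias would enter both comparisons with the reference.

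With R 4.3.3 and limma 3.58.1, mean signals were corrected by normexp (offset 50) on median backgrounds and normalized by loess. Backgrounds above 2 times the median of their array took the median's value (in 11 to 112 spots of a channel), and outlier spots (119 to 176 per array) were dropped. Control spots had weight 0. Each gene was its brightest tested probe; of 41174 probes, 31114 were tested. Group means were fitted over all 4 arrays with eBayes (2 residual and 1.79 prior degrees of freedom) and Benjamini-Hochberg adjustment at 0.05. Channel levels came from Aquantile scaling. The code was tested on simulated data. The number of arrays limits the precision.

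Members and lists were chosen with earlier results of these data known. Named are members that passed, Col1a1, Col1a2, Col3a1, Col4a1, Col4a2, Lama1, Lama5, Lamb1 and Lamc1, untested members, up to 4 called genes per list by adjusted p, Pou5f1 and Kdm1a; other members and genes were named after their values were seen, to fill out their class or count. Alternatives covered background, offset, normalization, source of the ratio, filter, probe choice, arrays left out and the replicate block. Kdm1a itself stood at 0.25 with dox and 0.036 with dox+TCP and did not pass (limma adjusted p = 0.15 and 0.81). Symbols were updated through RefSeq names (70 of the members' probes by accession, 29 by symbol). The values of 1 laminin chain are not reported here.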

Additional observations from a re-analysis of the deposited data

How the results depend on the processing

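The members named as risen against the reference were above 0 under every alternative run, and every alternative gave 0 calls between dox+TCP and dox. Counts moved more. Median centring gave 9 members and 6021 genes with dox and 5107 genes with dox+TCP. Fitted on the arrays of 1 group, dox gave 0 members and 0 genes and dox+TCP 5934 genes. With the replicate number as a block, 12 members and 4874 genes passed with dox and 12 members and 5146 genes with dox+TCP, 8 members higher and 4 lower in each; the labels do not say that the numbers pair cultures, and deviations of same-numbered arrays correlated at 0.47 across genes. With local backgrounds as read, 0 members and 0 genes passed in either comparison. Leaving out 1 array gave 0 to 6 members and 0 to 4122 genes with dox, and 0 to 10 members and 0 to 5934 genes with dox+TCP. With each probe tested on its own (added after seeing the data), 8 members had a called probe with dox, 5 higher and 3 lower.

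Only values that had not passed changed sign. With dox against the reference, median centring put Col1a2 at 0.037 and Lamc1 at 0.32; leaving out 1 array gave -1.02 to 0.14 for Col1a1, -0.82 to 0.029 for Col1a2 and -0.72 to 0.043 for Lamc1. With dox+TCP, Col3a1 was at 0.028 with median centring, 0.0070 with the mean of its probes and -0.20 to 0.053 with 1 array left out, and Lamc1 at 0.24 with median centring and -0.51 to 0.0095 with 1 array left out. For dox+TCP minus dox, backgrounds as read put Col18a1 at -0.013, Col3a1 at -0.0021 and Lama1 at -0.048; median centring put Col4a2 at -0.14, Lama1 at -0.035 and Lamc1 at -0.084. Col4a2 was at -0.052 with scanner ratios, -0.050 with the series matrix and -0.0092 with the mean of its probes. With 1 array left out, this difference ran from -0.082 to 1.08 for Col1a1, -0.16 to 0.67 for Col20a1, -0.059 to 0.21 for Col3a1, -0.055 to 0.16 for Col4a2, -0.31 to 0.52 for Lama1, -0.29 to 0.47 for Lamc1 and -0.67 to 0.081 for Lamb1. The causes were not tested. Slide as a random block could not be estimated, and scan day as a block equals leaving out dox+TCP replicate 2; neither was run. Signal over background limits the 9 untested members.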
